A study of Mus musculus with 16 samples.

Results

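Expression of 10 integrin and adhesion genes was followed across the cMyc+ LZ B cell subpopulations. The genes were taken by name as integrin chains and adhesion receptors, by a rule that sets no threshold on their values, and all 10 were found among the 51912 genes of the expression table. They encode the integrin α chains Itgal, Itga4 and Itgav, the β chains Itgb2, Itgb1 and Itgb7, the integrin ligands Icam1 and Icam2, the hyaluronan receptor Cd44 and the selectin ligand Selplg. All 10 passed the filter of a mean normalized count of at least 10, where a normalized count is a gene's count divided by 1 size factor per library, and were tested with the 12505 genes that passed it.

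RNA from 16 libraries, 4 for each of 4 subpopulations, was sequenced after low-input library preparation. All cells came from the spleens of male and female cMyc gfp/gfp reporter mice on a C57BL/6J background, aged 6 to 15 weeks, whose own cMyc gene carries GFP, so that cells with cMyc protein fluoresce. They were taken 7 d after intraperitoneal injection of sheep red blood cells (SRBCs), enriched by removal of CD43+ cells and sorted as B220+ CD38low CD95+ cMyc-GFP+ GC B cells. The cMyc+prePB subpopulation was CD69hi. The cMyc+early subpopulation was CD23hi CD21/35hi, the cMyc+lateCD23int subpopulation CD23int CD21/35int, and the cMyc+lateCD23lo subpopulation CD23lo CD21/35lo. No group without immunization and no cMyc-negative group was compared here. The labels number the libraries 1 to 4 in each subpopulation and do not say whether they came from separate animals, so p-values measure the spread between these libraries only.

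Integrins are receptors made of 1 α and 1 β chain, and a chain reaches the cell surface with its partner. ITGAL with ITGB2 forms LFA-1, which binds ICAM-1 and ICAM-2 and holds GC B cells to T cells and follicular dendritic cells. ITGA4 pairs with ITGB1 as VLA-4, a receptor for VCAM-1 and fibronectin, or with ITGB7 as the gut-homing receptor for MAdCAM-1. CD44 binds hyaluronan, and SELPLG (PSGL-1) binds selectins once it carries the right sugars.

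In the GRCm38 annotation the integrin α chain genes lay as follows: Itgal (ENSMUSG00000030830) at chr7:127296260-127335138, Itga4 (ENSMUSG00000027009) at chr2:79255426-79333123 and Itgav (ENSMUSG00000027087) at chr2:83724397-83806916, all on the plus strand. The β chain genes were Itgb2 (ENSMUSG00000000290) at chr10:77530252-77565708 and Itgb1 (ENSMUSG00000025809) at chr8:128685654-128733200 on the plus strand and Itgb7 (ENSMUSG00000001281) at chr15:102215995-102231944 on the minus strand. Of the ligands and other receptors, Icam1 (ENSMUSG00000037405) at chr9:21015985-21028817 was on the plus strand, and Icam2 (ENSMUSG00000001029) at chr11:106377656-106388075, Cd44 (ENSMUSG00000005087) at chr2:102811141-102901665 and Selplg (ENSMUSG00000048163) at chr5:113818536-113832644 were on the minus strand. The expression table held 1 value per gene and library, with no split by exon or transcript.

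Sequences upstream of the RefSeq start are printed for the 3 genes with the smallest p-values over the 4 subpopulations, Icam1, Itgb7 and Cd44, so that the letters near each start can be read beside the expression values. Each is 250 bases long, from GRCm38.p6, 5′ to 3′ on the strand of the gene, and capitals mark matches to the searched motifs. Icam1 lies on the plus strand at chr9:21015690-21015939, Itgb7 on the minus strand at chr15:102231936-102232185 and Cd44 on the minus strand at chr2:102901666-102901915.
Icam1: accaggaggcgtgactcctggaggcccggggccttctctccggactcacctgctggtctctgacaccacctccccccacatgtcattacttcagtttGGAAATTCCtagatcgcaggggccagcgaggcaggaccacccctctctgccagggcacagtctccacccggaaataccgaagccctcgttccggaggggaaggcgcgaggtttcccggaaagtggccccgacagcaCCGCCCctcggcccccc
Itgb7: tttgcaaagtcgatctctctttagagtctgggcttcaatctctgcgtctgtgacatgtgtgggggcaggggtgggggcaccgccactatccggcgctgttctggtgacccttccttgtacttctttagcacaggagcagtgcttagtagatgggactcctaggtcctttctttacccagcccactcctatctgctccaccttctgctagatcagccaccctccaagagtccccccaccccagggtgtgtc
Cd44: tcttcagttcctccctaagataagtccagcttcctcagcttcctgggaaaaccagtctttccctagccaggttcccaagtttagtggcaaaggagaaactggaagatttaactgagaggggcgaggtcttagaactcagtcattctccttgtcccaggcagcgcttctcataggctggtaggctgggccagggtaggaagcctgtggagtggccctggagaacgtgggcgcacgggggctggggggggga

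RefSeq windows of this kind matched 6 of the 10 genes, namely Itga4, Itgb1, Itgb7, Itgav, Icam1 and Cd44. Both strands were searched for the E-box CACGTG, the GC box GGGCGG, the TATA box TATAAA and the kappaB form GGAANNTCC. In Icam1, a GGAANNTCC match began 153 bases before the start, and such a match was present in 3.59% of the 32851 windows of all genes. A GC box began 17 bases before the Icam1 start, 114 before that of Itga4 and 151 before that of Itgb1, and was present in 32.7% of all windows. The windows of Itgb7, Itgav and Cd44 held no match to these letters. The E-box was present in 6.02% and the TATA box in 12.4% of all windows. These matches describe letters only.

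Recovered reads per library ranged from 19812080 to 25795815, and 3 reads, taken here as the floor of measurement, corresponded to 2.48 to 3.23 normalized counts. All 9 B and GC B cell markers were measured in every subpopulation, with summed levels of 103690 to 164641 in cMyc+prePB (median 117650), 131648 to 206355 in cMyc+early (156867), 158198 to 268262 in cMyc+lateCD23int (166380) and 149155 to 222802 in cMyc+lateCD23lo (158629). None of the 9 passed an adjusted p of 0.05 for cMyc+prePB against the other 3 subpopulations in limma, and 7 were lower at an unadjusted p under 0.05, beside 11.1% of tested genes in either direction. The 6 plasma cell markers summed to 48464.8 to 122980 in cMyc+prePB (median 58809.8) and 32225.9 to 39886.1 in cMyc+early (38335.6). They summed to 39702.9 to 70854.3 in cMyc+lateCD23int (58307) and 67063.3 to 104865 in cMyc+lateCD23lo (79065), which had the highest median. The 8 T cell markers summed to 38.8 to 303 and the 8 macrophage and monocyte markers to 203 to 1438 over all libraries, with the highest macrophage sums in cMyc+lateCD23lo (755 to 1438). The 6 neutrophil markers were at 0 in nearly all libraries (highest sum 8.14). The 6 endothelial markers summed to 242 to 1326, of which only Pecam1, which B cells also express, had a mean of at least 10. Over all libraries the platelet markers summed to 9.92 to 377, the stromal markers to 4.07 to 280, the dendritic cell markers to 484 to 1070 and the erythroid markers to 170 to 4956. The part of other cells in the results was not tested.

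The libraries also differed in how GC-rich and GC-poor genes were represented. This GC tilt, the median log2 deviation of the fifth of tested genes with the highest transcript GC content minus that of the fifth with the lowest, lay between -0.50 and -0.03 in 9 libraries and between 0.27 and 0.69 in 7. The gap of 0.30 between these sets was the widest in the series, followed by one of 0.15. In cMyc+prePB 1 library was below 0 and 3 were above, in cMyc+early and cMyc+lateCD23int 2 were on each side, and all 4 cMyc+lateCD23lo libraries were below 0. The tilt was noticed after the data were examined, and each member is given beside it where they moved together.

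Levels per length set the members in order, and this order and the ratios below depend on the length used. Here it was the union of all annotated exons, which was 4360 bases for Icam1, whose longest transcript had 2535. Divided by the kilobases of exon in the annotation, the mean over the 16 libraries was 972 normalized counts per kb for Itgb2, 530 for Itgb1, 509 for Cd44, 397 for Icam2, 337 for Icam1, 119 for Itgal, 36.5 for Selplg, 31.9 for Itgav, 20.1 for Itga4 and 16.2 for Itgb7. Itgb2 stood at the 88.1 percentile of the tested genes on this scale and Itgb7 at the 21.1 percentile. The β chain was above its α partner in 3 of the 4 pairs examined. Per kb, Itgb2 was 8.21 to 9.63 times Itgal in the group means, Itgb1 was 22.5 to 38.7 times Itga4, and Itgb1 was 15.7 to 25.1 times Itgav. Itgb7 was 0.37 times Itga4 in cMyc+prePB (SD 0.71, n = 4), 1.18 times in cMyc+early (SD 0.55), 0.68 times in cMyc+lateCD23int (SD 0.34) and 0.81 times in cMyc+lateCD23lo (SD 0.12).

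**Figure D1:**
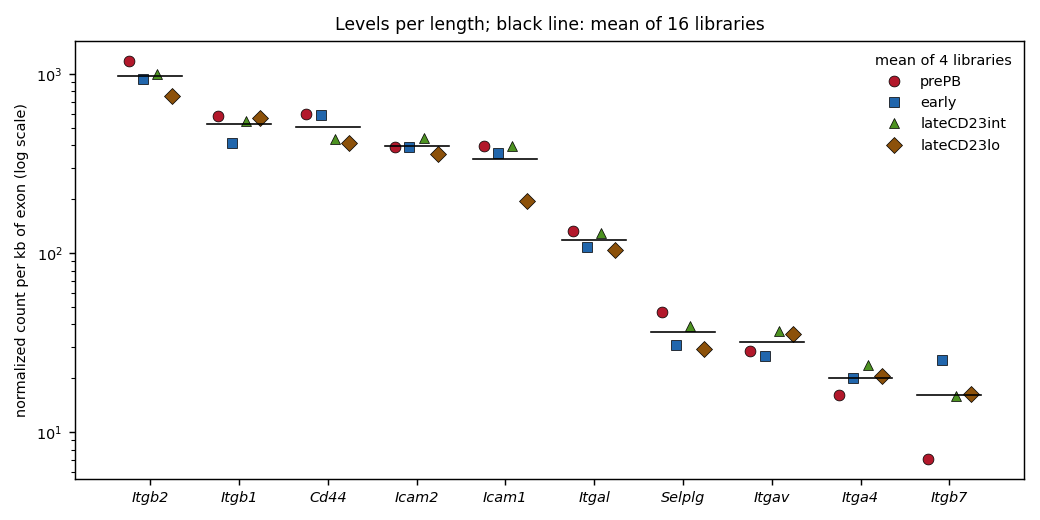
Mean normalized count per kb of exon (vertical axis, log scale) of each gene in cMyc+prePB, cMyc+early, cMyc+lateCD23int and cMyc+lateCD23lo (symbols, means of 4 libraries each), with the mean of the 16 libraries as a black line. The genes fall from Itgb2 at 972 to Itgb7 at 16.2, and the group means of a gene lie closest together for Icam2.

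The mean of 6 members was highest in cMyc+prePB (Itgal, Itgb2, Itgb1, Icam1, Cd44 and Selplg), and the mean of 6 was lowest in cMyc+lateCD23lo (Itgal, Itgb2, Icam1, Icam2, Cd44 and Selplg). Itga4 and Itgb7 had their lowest mean in cMyc+prePB, and Itgb1 and Itgav theirs in cMyc+early. Itgal, Itgb2, Icam1 and Selplg shared the descending order cMyc+prePB, cMyc+lateCD23int, cMyc+early and cMyc+lateCD23lo. The highest mean was 1.23 (Icam2) to 2.03 (Icam1) times the lowest for 9 members and 3.58 times for Itgb7. No neighbors in the order of any member passed an adjusted p of 0.05. In such bulk libraries, fewer cells with a transcript and less transcript per cell cannot be told apart.

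Whether the subpopulations differed in these genes was asked with an F test across the 4 subpopulations and with the 6 pairwise comparisons, both in limma, on log2(normalized count + 1). No member passed an adjusted p-value of 0.05 in the F test, where 51 of the 12505 tested genes (0.408%) did, and 4 of the 10 members had an unadjusted p under 0.05, beside 10.2% of tested genes. At the unadjusted threshold of 0.04, 3 of the 10 members passed, Icam1 (limma adjusted p = 0.22), Itgb7 (adjusted p = 0.28) and Cd44 (adjusted p = 0.41), beside 8.55% of all tested genes. In edgeR's quasi-likelihood test on the recovered reads, 0 members passed an adjusted p of 0.05 and 29 of all genes did. Of the 60 pairwise member comparisons in limma, 0 reached an adjusted p of 0.05 and 14 had an unadjusted p under 0.05, where 3.71% to 12.7% of all tested genes did in the single comparisons. The smallest adjusted p was 0.13.

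**Figure D2:**
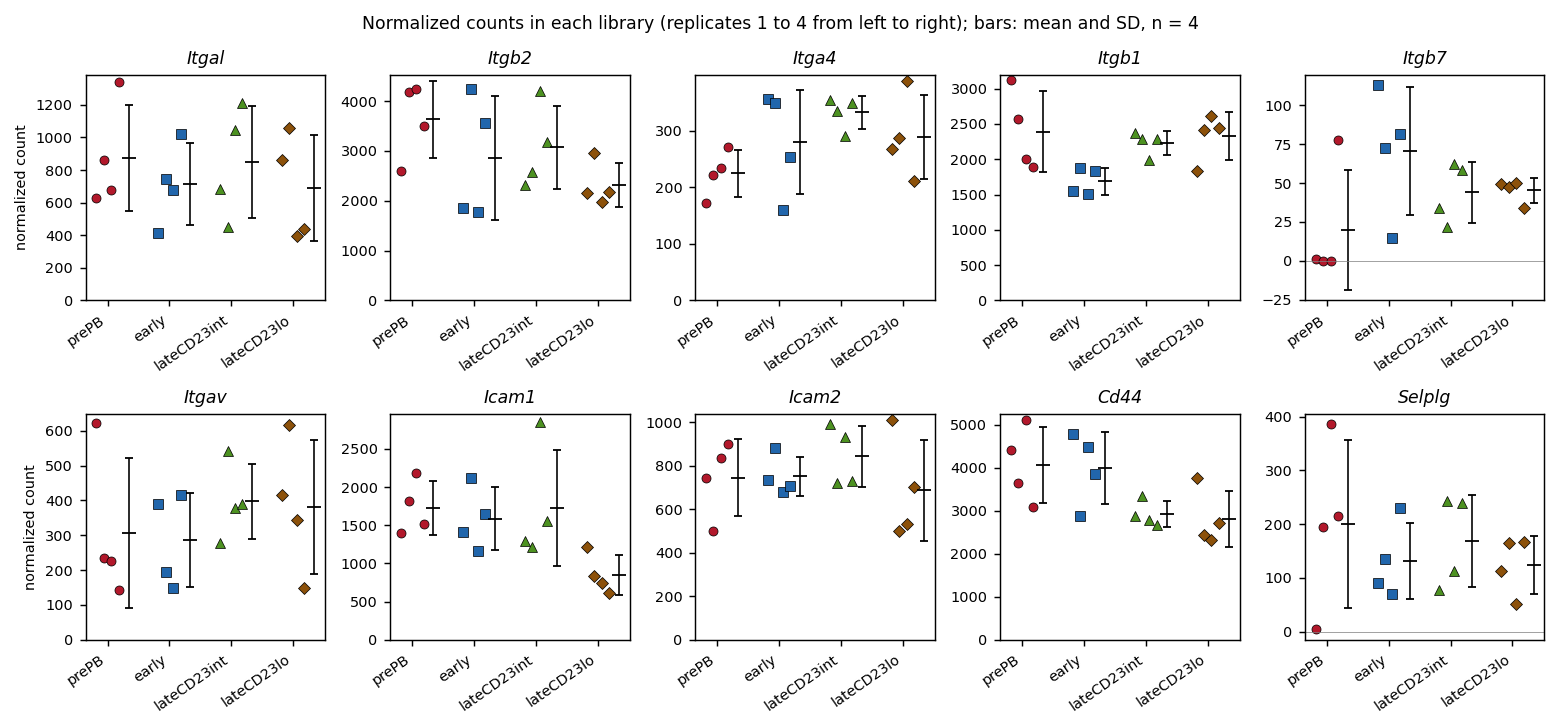
Normalized counts (vertical axes, from 0 except for Itgb7 and Selplg, whose axes start below 0) of the 10 genes in each library, by subpopulation, with the mean and SD of 4 libraries as a bar. The cMyc+lateCD23lo libraries hold the 3 lowest Icam1 values (612 to 835), and 3 of the 4 cMyc+prePB libraries have Itgb7 values of 0 to 1.07.

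The largest member difference outside Itgb7 was that of Icam1, the inducible ligand of LFA-1. It had normalized counts of 1393, 1819, 2181 and 1513 in the cMyc+prePB libraries 1 to 4. They were 1405, 2125, 1163 and 1645 in cMyc+early. In cMyc+lateCD23int they were 1289, 1211, 2846 and 1550. In cMyc+lateCD23lo they were 1216, 835, 739 and 612, and 3 of these 4 were below every other library in the study. The group means were 1726 ± 352, 1584 ± 410, 1724 ± 762 and 850 ± 260 (SD, n = 4) in this order. The cMyc+prePB and cMyc+lateCD23lo libraries did not overlap, which held for 6.56% of tested genes in this comparison, and 1 of the 10 members.

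Against cMyc+lateCD23lo, Icam1 had a log2 difference of 1.05 in cMyc+prePB (SE 0.28, 95% interval 0.46 to 1.63, limma adjusted p = 0.13). The log2 difference was 0.91 in cMyc+early (0.32 to 1.49, adjusted p = 0.24) and 0.98 in cMyc+lateCD23int (0.39 to 1.56, adjusted p = 0.58). No adjusted p-value passed. The other 3 Icam1 comparisons had differences of 0.07 to 0.14 in size, with limma adjusted p-values from 0.952 to 0.9999. Icam1 also differed between the sides of the GC tilt. Its r with the tilt was -0.34 within the 9 libraries below 0 and 0.24 within the 7 above. It ranged from 612 to 1405 in the 9 libraries with a tilt below 0 and from 1513 to 2846 in the 7 above 0, without overlap, which held for 4.15% of tested genes and, among the members, for Icam1 and Itgb2. Within the 9 libraries below 0, cMyc+lateCD23lo library 1 (1216) lay within the range of the 5 libraries of other subpopulations (1163 to 1405). The remaining cMyc+lateCD23lo values, 612 to 835, were below that range. With the side of the tilt as a covariate, the log2 difference between cMyc+prePB and cMyc+lateCD23lo was 0.61 (limma adjusted p = 0.49) and the F test adjusted p was 0.44. With the tilt itself as a covariate the difference was 0.73 (limma adjusted p = 0.31) and the F test adjusted p was 0.26. As every cMyc+lateCD23lo library was below 0, side and subpopulation are partly confounded.

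Icam2, a ligand of LFA-1 that is less dependent on inflammatory signals, had the smallest ratio of highest to lowest group mean among the members, 1.23. It had normalized counts of 743, 499, 837 and 900 in cMyc+prePB and 735, 882, 677 and 708 in cMyc+early. They were 990, 721, 929 and 727 in cMyc+lateCD23int and 1010, 500, 531 and 703 in cMyc+lateCD23lo. All 4 groups overlapped, with means between 686 and 842. The F test adjusted p was 0.88 in limma. The intervals of its pairwise log2 differences reached from -0.73 (cMyc+prePB against cMyc+lateCD23int) to 0.87 (cMyc+lateCD23int against cMyc+lateCD23lo), so that differences up to these sizes are within the error.

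For LFA-1 itself, Itgb2, the common β chain of the leukocyte integrins, had 2604, 4175, 4247 and 3495 normalized counts in cMyc+prePB. It had 1851, 4251, 1774 and 3554 in cMyc+early and 2324, 2570, 4210 and 3172 in cMyc+lateCD23int. In cMyc+lateCD23lo it had 2154, 2957, 1983 and 2167. The highest cMyc+lateCD23lo library lay above the lowest cMyc+prePB library, so the groups overlapped. The log2 difference between cMyc+prePB and cMyc+lateCD23lo was 0.64 (SE 0.27, limma adjusted p = 0.34), and the other 5 pairs had an unadjusted p over 0.05. Between the sides of the GC tilt the Itgb2 values did not overlap. The 9 libraries below 0 had 1774 to 2957 and the 7 above 0 had 3172 to 4251. With the side of the tilt as a covariate the log2 difference between cMyc+prePB and cMyc+lateCD23lo was 0.06 (limma adjusted p = 0.97), and with the tilt itself as a covariate it was 0.22.

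Itgal, the α chain that gives LFA-1 its binding domain for ICAMs, had 626, 859, 678 and 1337 normalized counts in cMyc+prePB. It had 415, 747, 676 and 1022 in cMyc+early and 682, 452, 1048 and 1213 in cMyc+lateCD23int. In cMyc+lateCD23lo it had 861, 1058, 397 and 436. Each subpopulation covered at least a 2-fold range and all 4 overlapped. The F test adjusted p was 0.91 in limma. For cMyc+prePB against cMyc+early the log2 difference was 0.30 (95% interval -0.51 to 1.10). Itgal ranged from 397 to 1058 in the 9 libraries with a tilt below 0 and from 678 to 1337 in the 7 above 0.

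Of the α4 and αV integrin chains, Itgb1, the β chain of VLA-4 and of many matrix receptors, was the least variable member. Its SD within subpopulations was 0.22 on the log2 scale, at the 6.45 percentile of tested genes, while the median tested gene had 0.62. Its normalized counts were 3120, 2565, 2001 and 1885 in cMyc+prePB and 1551, 1874, 1503 and 1830 in cMyc+early. They were 2377, 2290, 1988 and 2283 in cMyc+lateCD23int and 1841, 2417, 2616 and 2439 in cMyc+lateCD23lo. The 4 cMyc+early libraries were below all cMyc+prePB and all cMyc+lateCD23int libraries, and 3 of them were below all 4 cMyc+lateCD23lo libraries. Such separation held for 1 of 10 members and 4.23% of tested genes between cMyc+prePB and cMyc+early, and for 1 of 10 members and 2.48% of tested genes between cMyc+early and cMyc+lateCD23int. The log2 difference of cMyc+prePB against cMyc+early was 0.48 (SE 0.18, limma adjusted p = 0.45). For cMyc+early it was -0.41 against cMyc+lateCD23int (adjusted p = 0.9999) and -0.46 against cMyc+lateCD23lo (adjusted p = 0.38). These differences were of nearly the same size with the side of the GC tilt as a covariate (0.50, -0.41 and -0.41).

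Itga4, the α chain shared by VLA-4 and α4β7, was lowest on average in cMyc+prePB. Its normalized counts were 172, 222, 234 and 272 there and 356, 349, 161 and 254 in cMyc+early. They were 355, 336, 291 and 349 in cMyc+lateCD23int and 268, 288, 388 and 211 in cMyc+lateCD23lo. All cMyc+prePB libraries were below all cMyc+lateCD23int libraries, as for 1 of 10 members and 5.21% of tested genes, and the other pairs of subpopulations overlapped. The log2 difference between cMyc+prePB and cMyc+lateCD23int was -0.58 (95% interval -1.26 to 0.10, limma adjusted p = 0.64). Its median was 288 in the 9 libraries with a tilt below 0 and 272 in the 7 above. The summed B and GC B cell markers had their lowest median in cMyc+prePB too, as given above, and their part in the Itga4 and Itgb7 values was not tested.

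Itgb7, the β chain of the gut-homing integrin, showed the most uneven counts of all members. Its normalized counts were 1.07, 0, 0 and 77.5 in the cMyc+prePB libraries, which correspond to 1, 0, 0 and 86 reads. They were 113, 72.6, 14.4 and 81.3 in cMyc+early and 33.8, 21.4, 62.3 and 58.6 in cMyc+lateCD23int. In cMyc+lateCD23lo they were 49.6, 47.7, 49.95 and 33.7. Thus 3 cMyc+prePB libraries were at or under the floor of 3 reads, all 12 libraries of the other subpopulations were above it, and the remaining cMyc+prePB library was above 10 of those 12. At 0 reads, up to 3 reads remain possible, an allowance for counting error only.

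The log2 difference of Itgb7 in cMyc+prePB was -4.00 against cMyc+early (SE 1.14, 95% interval -6.39 to -1.61, limma adjusted p = 0.24). It was -3.53 against cMyc+lateCD23int (adjusted p = 0.34), -3.68 against cMyc+lateCD23lo (adjusted p = 0.19) and -3.74 against the mean of the other 3 subpopulations (SE 0.93, adjusted p = 0.10). In that last comparison 0 of 10 members and 0.312% of tested genes passed the adjusted threshold, and 1 member (Itgb7) and 11.1% of tested genes had an unadjusted p under 0.05. Fold changes of a gene with so few reads depend on the added count, and the difference against cMyc+early ranged from -4.58 (pseudocount of 0.5) to -1.83 (edgeR) with all libraries. Without cMyc+prePB library 4 the limma adjusted p was 0.021 against cMyc+early and 0.0048 against the other 3 subpopulations. This removed the only cMyc+prePB library above the floor, so these values are no separate support. Leaving out any other single library gave no adjusted p under 0.05 in these comparisons. In edgeR, with all libraries, the F test adjusted p of Itgb7 was 0.95.

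Itgav, the αV chain that pairs with several β chains to bind vitronectin and latent TGF-β, had 622, 236, 225 and 142 normalized counts in cMyc+prePB and 390, 196, 147 and 414 in cMyc+early. It had 279, 542, 379 and 389 in cMyc+lateCD23int and 415, 616, 344 and 150 in cMyc+lateCD23lo. The range within cMyc+prePB alone covered that of every other subpopulation. The F test adjusted p was 0.87 in limma, and the intervals of the 6 pairwise log2 differences lay between -1.59 and 1.22.

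Cd44, the hyaluronan receptor and a marker of activated lymphocytes, had 4428, 3657, 5111 and 3083 normalized counts in cMyc+prePB and 4781, 2869, 4488 and 3869 in cMyc+early. It had 2888, 3353, 2790 and 2663 in cMyc+lateCD23int and 3755, 2439, 2325 and 2715 in cMyc+lateCD23lo. The means of cMyc+prePB and cMyc+early were 4070 ± 886 and 4002 ± 846, and those of cMyc+lateCD23int and cMyc+lateCD23lo were 2923 ± 301 and 2809 ± 652 (SD, n = 4). Each of the first pair overlapped each of the second. The log2 differences were 0.46 and 0.54 for cMyc+prePB against cMyc+lateCD23int and cMyc+lateCD23lo (limma adjusted p = 0.50 and 0.26), and 0.43 and 0.51 for cMyc+early (adjusted p = 0.9999 and 0.38). Between cMyc+prePB and cMyc+early the log2 difference was 0.02 (95% interval -0.39 to 0.44). With the side of the GC tilt as a covariate the F test adjusted p was 0.18 in limma, and the medians of Cd44 were 3353 below and 3083 above a tilt of 0.

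Selplg, the P-selectin ligand of leukocytes, had 4.30, 194, 386 and 215 normalized counts in cMyc+prePB and 91.2, 135, 69.3 and 230 in cMyc+early. It had 77.6, 242, 113 and 240 in cMyc+lateCD23int and 113, 165, 52.0 and 167 in cMyc+lateCD23lo. Both the lowest and the highest value of the series were in cMyc+prePB. Its SD within subpopulations was 1.57 on the log2 scale, against 1.68 for Itgb7 and 0.75 or less for the other 8 members. The F test adjusted p was 0.98 in limma, and the interval of the log2 difference between cMyc+prePB and cMyc+early ran from -2.34 to 1.72. The 7 libraries with a tilt above 0 had 113 to 386 and the 9 below had 4.30 to 242.

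**Figure D3:**
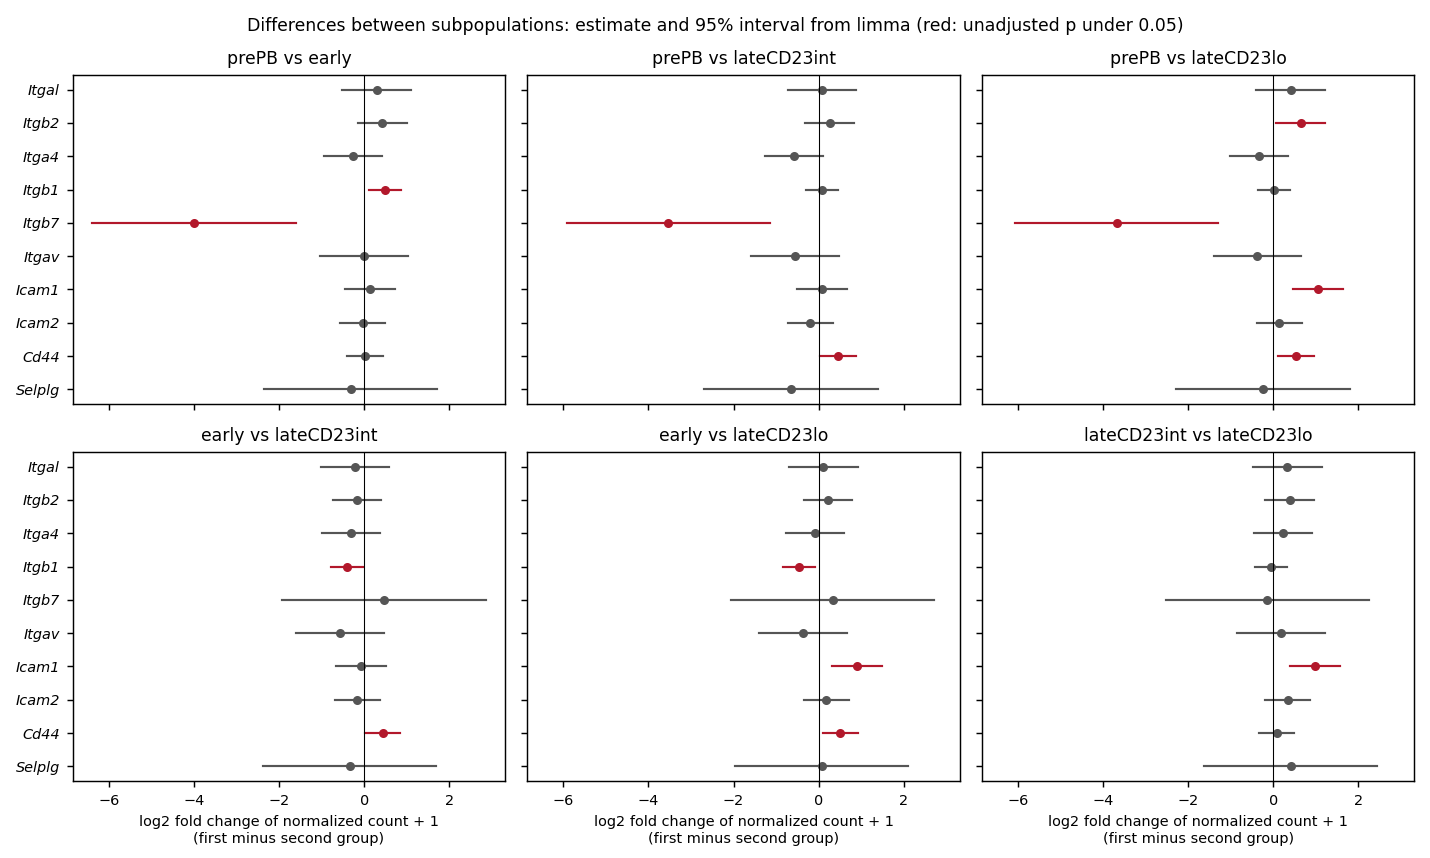
Log2 fold changes (horizontal axes, first minus second group) of the 10 genes in the 6 pairwise comparisons, as points with the 95% interval from limma, red where the unadjusted p was under 0.05. The intervals of Itgb7 are the widest beside those of Selplg, and Icam1 is to the right of 0 in the 3 comparisons against cMyc+lateCD23lo (0.91 to 1.05).

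Member counts in each pairwise comparison were read against the same share of all tested genes. An adjusted p under 0.05 in limma was reached by 0.192% of tested genes between cMyc+prePB and cMyc+early, 0.144% between cMyc+prePB and cMyc+lateCD23int, 0.264% between cMyc+prePB and cMyc+lateCD23lo, 0.008% between cMyc+early and cMyc+lateCD23int, 0.28% between cMyc+early and cMyc+lateCD23lo, 0.008% between cMyc+lateCD23int and cMyc+lateCD23lo, and by 0 members in each. At an unadjusted p under 0.05, 2 members (Itgb1 and Itgb7) passed between cMyc+prePB and cMyc+early, beside 8.58% of tested genes. Between cMyc+prePB and cMyc+lateCD23int 2 members passed (Itgb7 and Cd44), beside 8.77%. Between cMyc+prePB and cMyc+lateCD23lo 4 passed (Itgb2, Itgb7, Icam1 and Cd44), beside 12.7%. The comparison of cMyc+early with cMyc+lateCD23int had 2 (Itgb1 and Cd44), beside 3.71%. That of cMyc+early with cMyc+lateCD23lo had 3 (Itgb1, Icam1 and Cd44), beside 10.3%, and that of cMyc+lateCD23int with cMyc+lateCD23lo had 1 (Icam1), beside 6.28%. In the last pair of comparisons 0 of 10 members had groups that did not overlap, beside 6.23% and 3.77% of tested genes. The comparisons share libraries and are given side by side only. The median log2 difference of the 10 members ranged from -0.19 (cMyc+early against cMyc+lateCD23int) to 0.28 (cMyc+lateCD23int against cMyc+lateCD23lo), and that of all tested genes from -0.03 to 0.02.

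Since the chains of a heterodimer are needed together, the partners were compared across the 16 libraries. Over 4 pairs, Pearson's r was 0.61 for Itgal and Itgb2 (permutation p = 0.014, adjusted p = 0.032) with Spearman's rho of 0.56 (permutation p = 0.028, adjusted p = 0.055). It was 0.59 for Itga4 and Itgb7 (permutation p = 0.016, adjusted p = 0.032) with a rho of 0.57 (permutation p = 0.023, adjusted p = 0.055). For Itgav and Itgb1 r was 0.36 (permutation p = 0.17, adjusted p = 0.23) and rho 0.21 (permutation p = 0.44, adjusted p = 0.58). For Itga4 and Itgb1 r was -0.03 (permutation p = 0.92, adjusted p = 0.92) and rho -0.01 (permutation p = 0.96, adjusted p = 0.96). All permutation tests were two-sided.

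By Pearson's r, both Itgal with Itgb2 and Itga4 with Itgb7 also passed an adjusted p of 0.05 in 5 other settings. These were pseudocounts of 0.5 and 5, library totals set equal, quantile normalization and the replicate number as a block (permutation adjusted p 0.015 to 0.044). Neither of these 2 relations passed in the following checks. Without the 2 libraries farthest from the median of the α chain, r was 0.55 for Itgal and Itgb2 and 0.54 for Itga4 and Itgb7, with a permutation adjusted p of 0.090 for each. On deviations from the subpopulation means, r was 0.57 (permutation adjusted p = 0.098) and 0.48 (permutation adjusted p = 0.13). The relation of the LFA-1 chains also moved with the GC tilt. Within the 9 libraries below 0 their r was 0.46, within the 7 above it was -0.79, and with the side of the tilt removed from both genes it was 0.12 (permutation p = 0.67, adjusted p = 0.89). For Itga4 and Itgb7, r was 0.70 within the 9 libraries and 0.73 within the 7, with rho of 0.77 and 0.31. Over the 13 libraries with more than 3 reads of Itgb7, its r with Itga4 was 0.49 (permutation p = 0.090, adjusted p = 0.18) and rho 0.30.

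**Figure D4:**
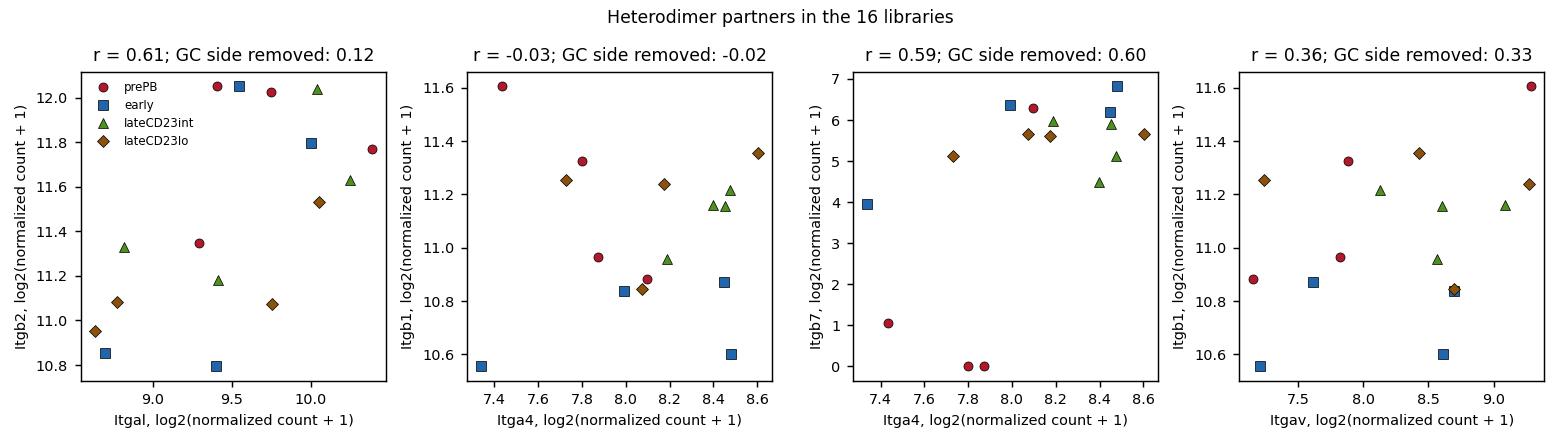
Log2(normalized count + 1) of the 4 α and β chain pairs, with the α chain on the horizontal axis and 1 symbol per library by subpopulation. The title of each plot gives Pearson's r over the 16 libraries and r after the side of the GC tilt was removed, which is 0.12 for Itgal and Itgb2 and 0.60 for Itga4 and Itgb7.

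The members differed among themselves in transcript GC content. It was 58.0% for Itgb7, 55.4% for Icam1, 53.9% for Icam2, 53.2% for Itgal, 53.1% for Itgb2 and 49.8% for Selplg, and 41.1% to 44.8% for Itga4, Itgav, Cd44 and Itgb1. Icam1 and Itgb2, whose values did not overlap between the sides of the tilt, were at the 84.0 and 73.7 percentiles of tested genes in GC content. Icam2 and Itgb7 had similar or higher GC content and overlapped between the sides. The part of the tilt in each result beyond the covariate fits was not tested.

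**Figure D5:**
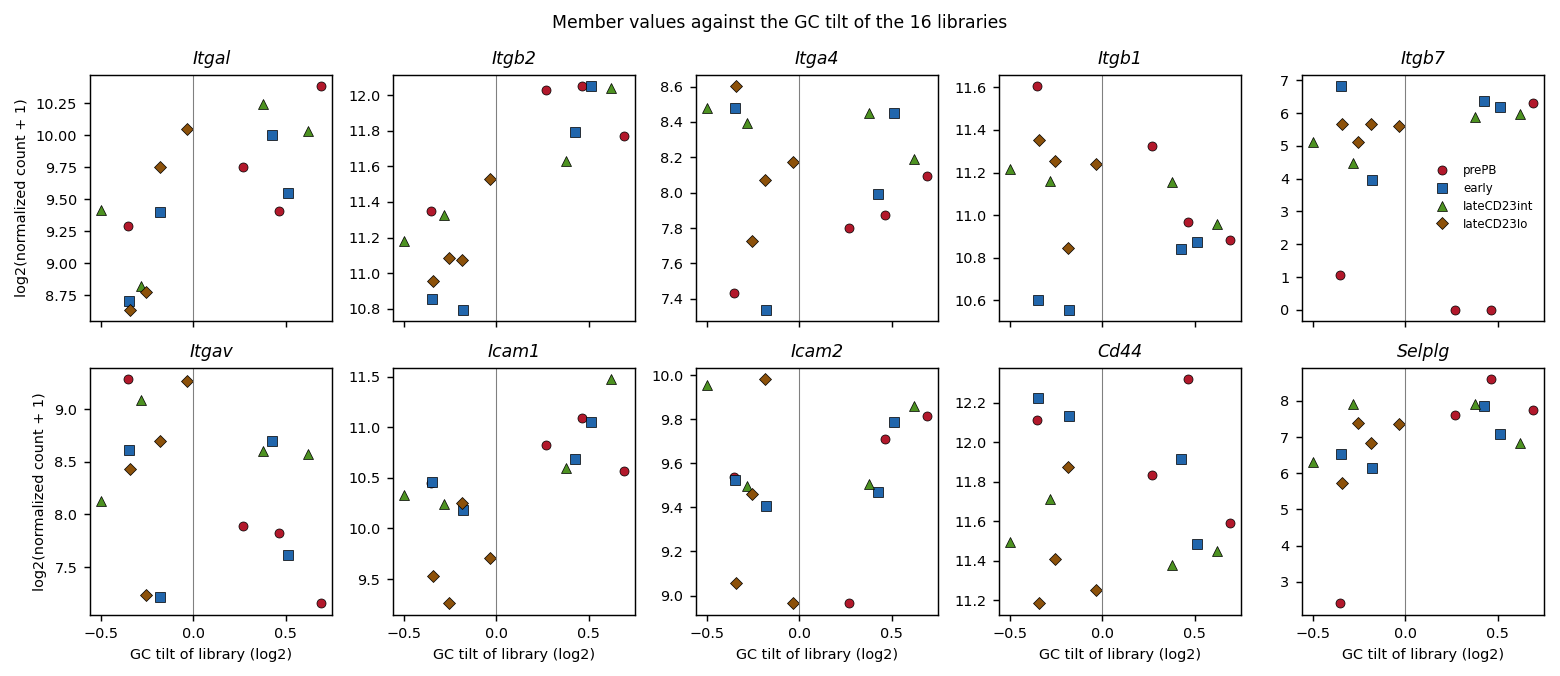
Log2(normalized count + 1) of each gene (vertical axes) against the GC tilt of the library (horizontal axes, log2), 1 symbol per library by subpopulation, with a line at a tilt of 0. The 7 libraries to the right of 0 hold all Itgb2 values from 3172 to 4251 and all Icam1 values from 1513 to 2846, and every cMyc+lateCD23lo library is to the left.

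The genes with the pattern most like those of the 3 members with the smallest F test p were named by the highest Pearson r over the 16 libraries. For Icam1 they included Mum1 (0.89) and Ifngr2 (0.88). For Itgb7 they were Scd2 (0.87), Clcn7 (0.85) and Fhod1 (0.82). For Cd44 they were Stk24 (0.82), Atp23 (0.81) and Otulin (0.78). The libraries behind these values share subpopulation, depth and GC tilt.

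Of 20 other integrin subunits, listed with 21 entries because Itgam has more than 1, 6 entries were at 0 in every library and 13 others had a mean under 10. Itga6, the laminin receptor chain, and Itgb3, the β chain of platelet and αV integrins, were measured at a mean of at least 10. Itgb3 had 170, 230, 2.70 and 4.51 normalized counts in cMyc+prePB and 5.77 to 59.7 in cMyc+early, 56.1 to 146 in cMyc+lateCD23int and 33.6 to 189 in cMyc+lateCD23lo. Itga6 had 0.90 to 251 in cMyc+prePB and 18.4 to 219 in the other subpopulations. Neither passed the F test in limma (adjusted p = 0.70 and 0.92). Itgb3 stands also in the platelet list, whose sums are given above.

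Among 22 genes of integrin activation and its adaptors, 20 were tested. In the F test of limma 0 had an adjusted p under 0.05, beside 0.408% of all tested genes. An unadjusted p of 0.04 or less was reached by 5, beside 8.55% of all tested genes. The smallest p was that of Skap1, an adaptor that couples antigen receptors to integrins (limma adjusted p = 0.11). It had normalized counts of 1.07, 19.8, 0 and 0 in cMyc+prePB and 56.6, 63.7, 47.2 and 237 in cMyc+early. They were 85.6, 33.6, 74.7 and 60.4 in cMyc+lateCD23int and 1.08, 49.6, 18.4 and 25.5 in cMyc+lateCD23lo. The cMyc+prePB libraries were below all cMyc+early and all cMyc+lateCD23int libraries. Groups did not overlap for 4.23% and 5.21% of tested genes in these comparisons. Flna, filamin A, which competes with talin for integrin tails, came next (limma adjusted p = 0.25) with 261 to 555 in cMyc+lateCD23lo and 508 to 1320 in cMyc+early. Over the list the median log2 difference of cMyc+prePB was -0.27 against cMyc+early, -0.31 against cMyc+lateCD23int and -0.18 against cMyc+lateCD23lo. It was 0.03 for cMyc+early against cMyc+lateCD23int, 0.31 for cMyc+early against cMyc+lateCD23lo and 0.27 for cMyc+lateCD23int against cMyc+lateCD23lo. All tested genes had -0.03 to 0.02.

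Of 21 further adhesion ligands, receptors and selectins, 13 were tested. Over this list the median log2 difference of cMyc+prePB was -0.08 against cMyc+early, 0.02 against cMyc+lateCD23int and 0.31 against cMyc+lateCD23lo. It was 0.16 for cMyc+early against cMyc+lateCD23int, 0.31 for cMyc+early against cMyc+lateCD23lo and 0.10 for cMyc+lateCD23int against cMyc+lateCD23lo. All tested genes had -0.03 to 0.02.

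Of 18 genes that sulfate, glycosylate, cleave or anchor PSGL-1 and CD44, or that make or bind hyaluronan, 13 were tested. In the F test of limma 0 had an adjusted p under 0.05, beside 0.408% of all tested genes. An unadjusted p of 0.04 or less was reached by 5, beside 8.55% of all tested genes. Adam17, a sheddase of cell surface proteins, had the smallest p (limma adjusted p = 0.13). It had normalized counts of 3637, 3220, 2618 and 3509 in cMyc+early, 1779 to 2775 in cMyc+prePB, 1855 to 2917 in cMyc+lateCD23int and 1736 to 1908 in cMyc+lateCD23lo. The cMyc+early libraries were above all cMyc+lateCD23lo libraries, where 6.23% of tested genes did not overlap, and overlapped the others. Tpst2, which sulfates tyrosines of PSGL-1 (limma adjusted p = 0.38), had 338 to 386 in cMyc+early, 61.3 to 261 in cMyc+prePB, 93.5 to 370 in cMyc+lateCD23int and 58.0 to 147 in cMyc+lateCD23lo. Over the list the median log2 difference of cMyc+prePB was -0.30 against cMyc+early, -0.12 against cMyc+lateCD23int and 0.16 against cMyc+lateCD23lo. It was 0.48 for cMyc+early against cMyc+lateCD23int, 0.21 for cMyc+early against cMyc+lateCD23lo and 0.10 for cMyc+lateCD23int against cMyc+lateCD23lo. All tested genes had -0.03 to 0.02.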

How the data were processed

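RNA of 4 subpopulations of splenic cMyc+ LZ B cells was sequenced in 16 libraries on a HiSeq4000. The authors deposited a signal per gene, the normalized count, in which 1 size factor scales all genes of a library. The submitters' processing notes name Trimmomatic 0.36, STAR 2.5.2a, RSEM 1.2.31, DESeq2 1.20.0, R 3.5.1 and GRCm38, without roles. Values were whole multiples of 1 read (100% of values within 0.001), so reads were recovered. The members and lists were chosen with earlier results of these data known.

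Genes with a mean of at least 10 were fitted in limma 3.58.1 (R 4.3.3) on log2(normalized count + 1), with a trended prior, 1 model over all libraries and Benjamini-Hochberg adjustment over 12505 genes. On this scale the added count reduces fold changes of low genes, while libraries near 0 weigh heavily in a mean of logs. For Itgb7 in cMyc+prePB against cMyc+early it gave -4.00, where edgeR gave -1.83. Partner correlations used 100000 permutations in numpy 2.4.6. The settings tried are named in the closing section, the quasi-likelihood test of edgeR 4.0.16 among them. The GC tilt used 12471 tested genes found in GENCODE. Scripts were tested on simulated data. All members are named, then per list the genes with an adjusted p under 0.05 in the F test, or else the 2 smallest p-values, and the 3 genes most like each member with a p of 0.04 or less. Of the genes this rule names, 1 list gene and 1 of the most alike genes are not reported here.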

Additional observations from a re-analysis of the deposited data

Results flagged for a closer look

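In 2 of the 40 sets of 4 libraries formed by the 10 genes and the 4 subpopulations, 1 library stood far from the other 3 by Dixon's criterion, which chance meets in about 1 of 20 sets. The cMyc+prePB library 4 had an Itgb7 value of 77.5 normalized counts, where the others had 0 to 1.07. The cMyc+lateCD23lo library 4 had an Itgb7 value of 33.7, where the others had 47.7 to 49.95.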

How the results depend on the processing

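The fits were repeated after library totals were set equal, after quantile normalization, at pseudocounts of 0.5 and 5, for all genes or those with a mean of 50 or more, without the trend, with the replicate number as a block, in edgeR with and without this block, on the compared groups alone, without each library and, added after seeing the data, the GC tilt or its side as a covariate. No member passed an adjusted p of 0.05 with all libraries, except that Itgb7 passed for cMyc+prePB against the other 3 subpopulations under the replicate block (1 member, limma adjusted p = 0.046). Leaving out 1 library gave 0 to 1 members in the F test and in every comparison of cMyc+prePB, the 1 being Itgb7 without cMyc+prePB library 4, and 0 in the others. With 1 library left out, the limma adjusted p of the F test was 0.25 to 0.62 for Cd44 and 0.014 to 0.59 for Itgb7. With a mean of at least 50 Itgb7 was not tested.

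Whether same-numbered libraries are paired was not settled, and the main fits treat them as unpaired. The correlation of their deviations was 0.05 on average (-0.13 to 0.17), against -0.02 for libraries of different subpopulations and different numbers. It was over 0.1 in 5 of 24 pairs. Of the 16 libraries, 10 correlated best with a library of their own number, which only a minority of the candidates carried. Under this replicate block the F test called 173 genes instead of 51, and edgeR with the block called 129.

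For Itgal and Itgb2, r was 0.57 on deviations from the subpopulation means, 0.55 without the 2 farthest libraries, 0.12 with the side of the GC tilt removed and, reversed, -0.0330 with the tilt removed. For Itga4 and Itgb7, r was 0.48, 0.54, 0.60 and 0.59 in this order, with adjusted p over 0.05 in each. Of the 10 settings tried, 5 kept a permutation adjusted p under 0.05 for each of these pairs, as named in the results. The replicate block is among them, with the limit given there. On the 13 libraries with more than 3 reads of Itgb7, also added after seeing the data, r was 0.68 for Itgal and Itgb2 (permutation adjusted p = 0.0504), 0.49 for Itga4 and Itgb7 and 0.42 for Itga4 and Itgb1. For Itga4 and Itgb1, r was 0.0501 at the same total and 0.00824 after quantile normalization, against -0.0272. The cause of these shifts was not tested.

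Counts over all genes moved by over 1.5 times in several settings. The F test called 25 genes with no trend, 29 in edgeR and 31 with no filter. With all libraries, the count ranged from 1 to 65 for cMyc+prePB against cMyc+early (24 as reported), 8 to 121 against cMyc+lateCD23int (18), 13 to 192 against cMyc+lateCD23lo (33) and 27 to 211 against the other 3 subpopulations (39), from 19 to 90 for cMyc+early against cMyc+lateCD23lo (35), 0 to 1 for cMyc+early against cMyc+lateCD23int (1) and 0 to 2 for cMyc+lateCD23int against cMyc+lateCD23lo (1). Low read counts limit Itgb7 and Skap1, which were at or under 3 reads in 3 cMyc+prePB libraries each. The cause of these low counts was not tested.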
